A study of Danio rerio with 12 samples.

Results

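Normal gastrulation was read here from zebrafish embryos that had received only a control morpholino (MO), an antisense oligonucleotide with no intended target in the embryo. The members are 6 of the 12 expression arrays of the study: the 3 arrays of control MO embryos at 90% epiboly (9 hpf) and the 3 of control MO embryos at shield (6 hpf), taken by their labels and not by any measured value. These embryos were of the AB strain, were injected with 0.75 pmol of standard control MO, and were collected whole in pools of 200, from which total RNA was labelled with a single dye. The other 6 arrays hold embryos that had received MOs against both *ta* (0.25 pmol) and *tbx16* (0.5 pmol), called double MO, at the same strain and stages, and they enter the shared estimate of spread and the comparison at the end. No uninjected group was among the samples, so the stage change is that of injected embryos. The labels number the samples of a group 1 to 3 and do not say whether they came from separate clutches, so p-values cover the spread among these samples, which may be technical.

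Gastrulation in the zebrafish turns a cap of blastoderm on the yolk into an embryo with germ layers and axes. At shield stage the organizer has just formed at the dorsal margin, Nodal signals are patterning mesendoderm, and products stored in the egg are still being cleared. By 90% epiboly the blastoderm has nearly closed over the yolk, internalised cells have converged to the dorsal side, and the neural plate, notochord, presomitic mesoderm and endoderm are laid out. Layers outside the embryo proper are in the sample as well: the enveloping layer, a flat epithelium that covers the blastoderm, and the yolk syncytial layer, which sits on the yolk and feeds the embryo. In RNA from whole embryos, fewer cells of a type and less RNA per cell cannot be told apart.

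Each array gave a log2 signal for 45220 features, of which 26855 name 13275 genes. Arrays of a group correlated with each other at 0.975 to 0.990 at 90% epiboly and 0.966 to 0.980 at shield, and across the stages at 0.938 to 0.964. In limma's fit 2591 features rose and 3182 fell (5.73% and 7.04% of all). Taking for each gene the feature with the highest mean over the 12 arrays, 955 genes rose and 1099 fell, which are 7.19% and 8.28% of the 13275, and the median over all genes was 0.02 on the log2 scale. Of the 8212 genes read by 2 or more features, 321 (3.91%) rose and 556 (6.77%) fell with at least 2 features passing one way and none the other. More genes thus fell than rose by each of these counts. A change of more than 4-fold was reached by 41 of the 321 and 37 of the 556. By value alone, 16.5% of all genes had their 3 values at 90% epiboly above all 3 at shield, and 16.4% had them below.

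A single array weighs on these counts. With 1 control array left out in turn, the genes that rose numbered 506 without 90% epiboly replicate 3 and 515 without shield replicate 3, and the genes that fell 637 and 655 without the same arrays. Without shield replicate 1 they numbered 968 and 1199, more than with all arrays. In several genes below, *fabp2*, *otx2b* and *ndr1* among them, that array was the shield sample nearest to 90% epiboly, though not in others such as *hsp90aa1.2*. Counts of lists below are to be read against the 7.19% of all genes that rose and the 8.28% that fell. Ranges given beside the counts of lists below are the lowest and highest count over these 6 omissions, and the array that gave the lowest is named where the count dropped by more than 1.5 times. The shield control arrays also stood apart on their own: on 13 features all 3 of them lay more than 2 log2 units above all 9 other arrays, and on 2 features as far below. The 12 features that fell by 4.5 log2 units or more were all of this kind. They averaged 10.2 to 14.7 in the shield control arrays and 5.48 to 6.18 in each of the other groups, shield double MO embryos included. Of these 12 features, 3 name a gene, *arrdc1b*, *prkg2* and *tgfbr2b* (differences of -9.02, -7.76 and -8.00), and a second feature of *tgfbr2b* differed by 0.11. Of the 128 genes named in the text that passed and have several features, 17 passed in the direction given on a single feature: *apoa4a*, *casp3b*, *ckap5*, *crabp2b*, *cxcr4a*, *foxr1*, *hnf4a*, *hoxa1a*, *hoxd11a*, *mcm3l*, *ndr1*, *neurog1*, *snrpd3*, *sox11b*, *tbr1b*, *tgfbr2b* and *vent*. In 5 of the 128 (*apoa4a*, *cdx1a*, *cxcr4a*, *foxr1* and *tgfbr2b*) another feature had the opposite sign. Of 33 defining markers of 7 layers or tissues (enveloping layer, yolk syncytial layer, primordial germ cells, axial mesoderm, margin, endoderm and neural plate) 31 were measured, and none was among the dimmest 40% of features (under 6.56) at both stages. Summed signals of such markers below add signals before taking the log, so each sum is led by its brightest features. Below, a gene is given by the log2 signals of samples 1 to 3 of each stage, and in parentheses by the log2 difference of 90% epiboly minus shield ± SE. Signals of different genes come from different probes and are not compared. Many genes below were named for a small p in 1 direction or for a large change. That their stages do not overlap, or that they share a direction, is therefore no further support.

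**Figure D1:**
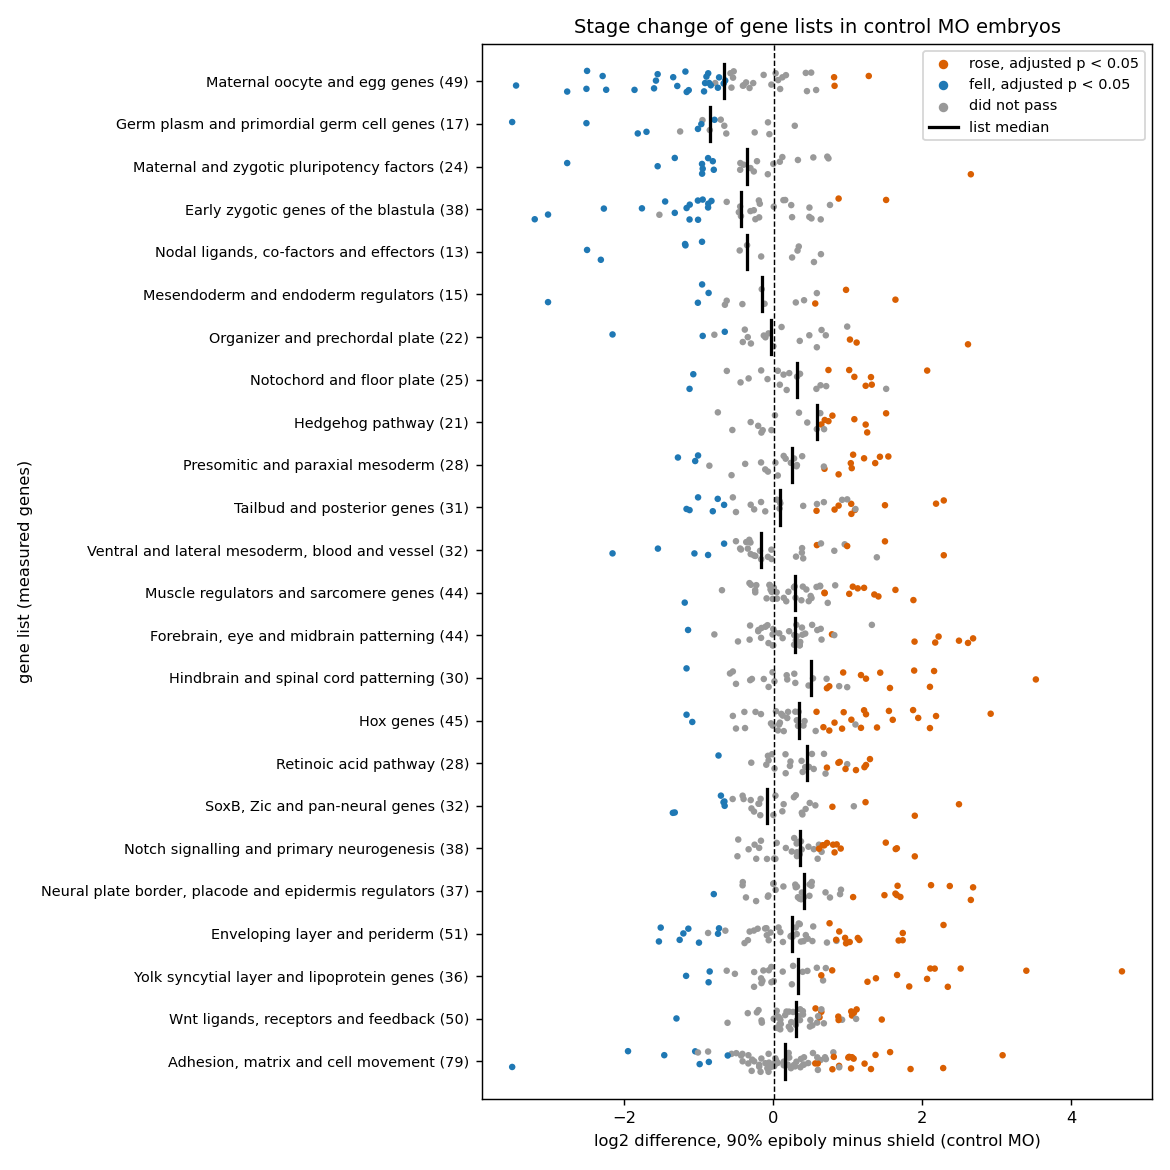
Log2 difference of 90% epiboly minus shield in control MO embryos (horizontal axis) for each measured member of 24 gene lists (rows), read from the brightest feature of each gene. Orange points passed upward and blue points downward at an adjusted p of 0.05 (limma), grey points did not pass, black bars are list medians and the dashed line is the median of all 13275 genes, 0.02. The lists of maternal and germ plasm genes lie mostly left of the line, and those of neurogenesis, the hindbrain and the Hedgehog pathway mostly right of it.

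Among genes whose features all had one sign, the 15 that rose most were led by genes of the yolk syncytial layer and by regulators of the neural plate and its border. *fabp2*, an intestinal fatty acid binding protein, gave 11.10, 11.27 and 11.93 at 90% epiboly, against 7.75, 6.11 and 6.39 at shield, a rise of 4.68 ± 0.53 (adjusted p = 0.000149) or 25.7-fold. *meis2b*, a homeodomain cofactor of Hox proteins, gave 9.69, 9.77 and 9.83 at 90% epiboly, against 6.29, 6.33 and 6.104 at shield (3.53 ± 0.22, adjusted p = 1.23e-06). *apobb.1*, an apolipoprotein B that forms the scaffold of lipoprotein particles, gave 10.44, 10.89 and 11.30 at 90% epiboly, against 7.99, 7.27 and 7.18 at shield (3.40 ± 0.35, adjusted p = 7.25e-05). In all 3 genes the stages were at least 2.45 log2 units apart, and the shield mean of *meis2b* lay under 6.56, among the dim features. The laminin receptor subunit *itga6a* rose by 3.08, the Hox gene *hoxc3a* by 2.92, and *fsta*, which encodes the Activin and Bmp binding protein follistatin, by 2.86, and the shield means of these 3 lay under 6.56 too. Features of a gene did not all change by such sizes. The smallest difference was 0.65 for *fabp2*, 0.37 for *meis2b*, 0.28 for *itga6a* and 0.81 for *hoxc3a*. Those features of *fabp2*, *meis2b* and *itga6a* did not pass (adjusted p = 0.148, 0.153 and 0.441). *gatm*, the first enzyme of creatine synthesis, gave 12.68, 12.64 and 12.65 at 90% epiboly, against 10.59, 9.46 and 9.43 at shield (2.83 ± 0.40, adjusted p = 0.000561), and its 4 features differed by 2.52 to 2.87. The placodal and otic regulator *dlx3b* rose by 2.68, *tm6sf2a*, whose human counterpart acts in the lipid loading of lipoproteins, by 2.67, the Kruppel-like factor *klf2a* by 2.65, the head gene *otx2b* by 2.62 and the neural plate gene *zic1* by 2.495. The phosphatase *cdc14aa*, the uncharacterised *zgc:136410* and the Hsp90 gene *hsp90aa1.2* complete the 15, at 2.60, 2.56 and 2.51. These genes cover several tissues, and each kept its call without any 1 array.

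The 15 genes that fell most held egg products, early zygotic regulators and enzymes or carriers of metabolism. *ccna1*, the cyclin A of the germ line and egg, gave 8.17, 8.01 and 7.65 at 90% epiboly, against 10.85, 11.77 and 11.56 at shield, a log2 difference of -3.45 ± 0.39 (adjusted p = 0.000138). *mixl1*, a homeodomain TF of mesendoderm downstream of Nodal, gave 8.61, 9.02 and 8.60 at 90% epiboly, against 11.26, 12.19 and 11.84 at shield (-3.02 ± 0.26, adjusted p = 2.59e-05), with 5 of 5 features passing and differences of -3.02 to -1.72. *nanog*, a maternal activator of the zygotic genome, gave 9.92, 9.52 and 9.30 at 90% epiboly, against 11.17, 13.10 and 12.76 at shield (-2.77 ± 0.47, adjusted p = 0.0019). The stages did not overlap for any of the 3, as the rule that chose them required. Shield replicate 1 of *nanog* lay well below the other 2 shield samples. *gdf3* (Vg1), the maternal partner of the Nodal ligands, gave 8.59, 8.71 and 8.36 at 90% epiboly, against 10.21, 11.29 and 11.66 at shield (-2.498 ± 0.30, adjusted p = 0.000209), and again its shield replicate 1 was the lowest of that stage. The lactate carrier *slc16a3b* had a log2 difference of -2.74, the fatty acid carrier *slc27a1a* -2.48, the glycogen primer *gyg1a* -2.35, and *ndrg1a*, a gene known for its response to stress, -2.68. A further feature of *gyg1a* was at -0.48 and did not pass (adjusted p = 0.170). *tsc1a*, an inhibitor of mTORC1, the ubiquitin conjugating enzyme *cdc34a*, the phosphatase scaffold *strn* and the lipid binding protein *stard14* were at -2.43, -2.42, -2.57 and -2.39. The genes *si:dkeyp-114g9.1* (-3.30), *fam49ba* (-2.91) and *zgc:153911* (-2.78) are named with no role. These calls too held without any 1 array.

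**Figure D2:**
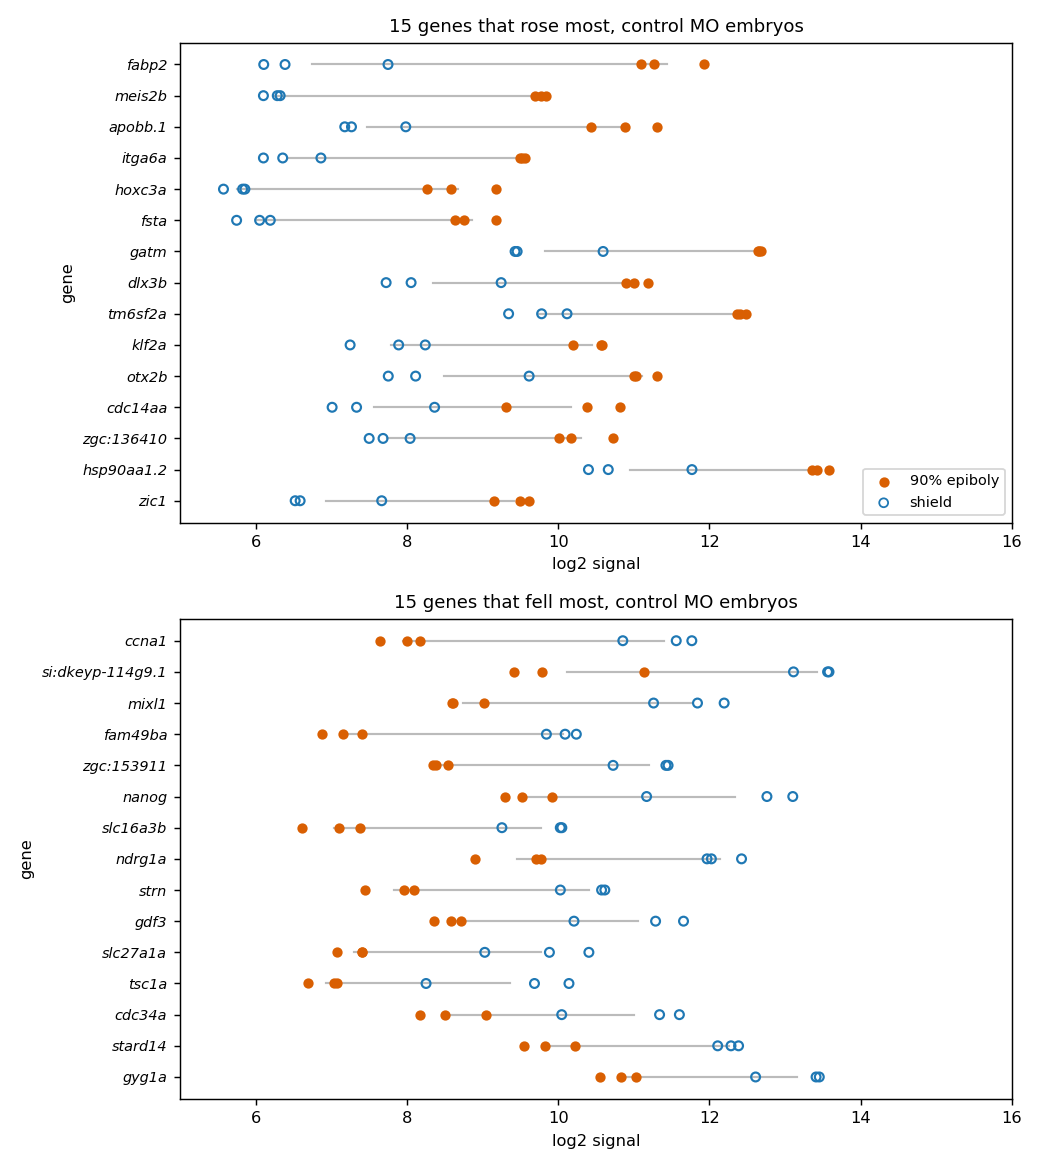
Log2 signal per sample (horizontal axis) of the 15 genes that rose most (upper panel) and the 15 that fell most (lower panel) in control MO embryos. Filled orange circles are the 3 samples at 90% epiboly and open blue circles the 3 at shield, with a line joining the means. The stages do not overlap in any of the 30 genes, as the rule that chose them required.

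Many products laid down in the egg were lower at 90% epiboly. Of 49 measured genes of the oocyte and egg, 25 fell (range 16 to 25, lowest without 90% epiboly replicate 3) and 3 rose (range 1 to 2, lowest without 90% epiboly replicate 3), so 51% fell against 8.28% of all genes. Their median was -0.66, against 0.02. *h1m*, the linker histone of the oocyte, gave 9.15, 9.20 and 8.87 at 90% epiboly, against 11.24, 11.58 and 11.92 at shield (-2.51 ± 0.27, adjusted p = 0.000118). *npm2a*, a nucleoplasmin of egg chromatin, gave 6.05, 6.18 and 5.89 at 90% epiboly, against 8.16, 7.37 and 8.17 at shield (-1.86 ± 0.22, adjusted p = 0.000187). *foxr1*, a forkhead gene listed here for its expression in the ovary, went the other way (6.96, 7.42 and 7.56 at 90% epiboly, against 5.70, 6.03 and 6.36 at shield, 1.28 ± 0.24, adjusted p = 0.0033), although its second feature differed by -0.02. Of the germ plasm and primordial germ cell list, 7 of 17 fell (range 5 to 8) and none rose, with a median of -0.85. The summed signal of the 5 measured defining markers of primordial germ cells was 10.38 to 10.93 on the log2 scale at 90% epiboly, against 11.93 to 12.35 at shield, and the part of germ cell number in these values was not tested. *ddx4* (vasa), the RNA helicase that marks germ plasm, gave 10.29, 10.29 and 9.72 at 90% epiboly, against 11.54, 12.06 and 11.80 at shield (-1.70 ± 0.20, adjusted p = 0.0002). *piwil1*, the piRNA binding Argonaute, gave 7.54, 7.71 and 7.07 at 90% epiboly, against 8.88, 9.06 and 9.84 at shield (-1.82 ± 0.29, adjusted p = 0.0012). *cxcr4b*, the receptor by which germ cells read Cxcl12, had the lowest difference of this list (9.33, 9.13 and 9.21 at 90% epiboly, against 12.35, 13.08 and 12.74 at shield, -3.50 ± 0.26), and it is read by 1 feature and is also expressed outside the germ line.

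For several of the fallen egg genes the genome holds a sister copy that cycling or somatic cells use, and copies were set side by side after their values had been seen. The egg replication factor *mcm6l* had a difference of -2.05 ± 0.35 (adjusted p = 0.0019), while its sister *mcm6* had a difference of 0.48 ± 0.18 (adjusted p = 0.104). A dimmer feature of *mcm6* passed upward at 0.60 (adjusted p = 0.0265). *mcm3l* had -1.39 ± 0.28 (adjusted p = 0.0059) and *mcm3* 0.14 ± 0.16 (adjusted p = 0.655). For the 5S RNA factor TFIIIA, *gtf3ab* gave 7.10, 7.28 and 7.11 at 90% epiboly, against 8.44, 8.91 and 8.94 at shield. Its copy *gtf3aa* gave 8.14, 8.45 and 7.88 at 90% epiboly, against 8.55, 7.72 and 8.10 at shield. The stages were apart for *gtf3ab* (-1.60 ± 0.24) and overlapped for *gtf3aa* (0.03 ± 0.21). Cyclin A was an exception in kind, since *ccna2*, the somatic copy, also had a difference below 0, at -1.46 ± 0.33 (adjusted p = 0.0113, and 0.0502 and 0.0533 without 90% epiboly or shield replicate 3). The difference between 2 copies was not tested.

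Among TFs of the pluripotency network and the first zygotic genes, most members that passed were lower as well. Of 24 pluripotency factors 9 fell (range 6 to 8) and 1 rose (range 1 to 3, highest without shield replicate 1), and of 38 genes switched on in the blastula 15 fell (range 12 to 16) and 2 rose (range 1 to 5, lowest without 90% epiboly replicate 1, 2 or 3 or shield replicate 2 or 3, highest without shield replicate 1). The medians were -0.35 and -0.44. *pou5f3*, which with Nanog and SoxB1 proteins opens the zygotic genome, gave 13.41, 13.23 and 12.63 at 90% epiboly, against 14.60, 14.58 and 14.75 at shield (-1.55 ± 0.21, adjusted p = 0.000455). *sox3*, the SoxB1 gene that later marks neural ectoderm, gave 12.04, 11.97 and 12.12 at 90% epiboly, against 13.23, 13.37 and 13.48 at shield (-1.32 ± 0.20, adjusted p = 0.000809). Both kept stages apart by more than the spread within them. The nuclear receptor *nnr* fell to 10.28, 10.18 and 10.44 at 90% epiboly, against 12.55, 12.47 and 12.71 at shield (-2.27 ± 0.24). *morc3b*, a chromatin ATPase gene, was at 5.92, 6.201 and 5.97 at 90% epiboly, against 8.69, 9.54 and 9.46 at shield (-3.201 ± 0.33). The one pluripotency factor that rose was *klf2a*, already named above.

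Several transcripts of the Nodal pathway were lower at 90% epiboly. Nodal ligands signal with Gdf3 through Activin receptors and the co-receptor Tdgf1 (Oep) to Smad2 and the TF Foxh1, and Lefty proteins hold them back. Of 13 measured genes, 5 fell (5 each time) and none rose, which is 38.5% against 8.28% of all genes. The ligand *ndr1* (Squint) gave 6.17, 6.27 and 6.24 at 90% epiboly, against 7.84, 8.93 and 8.85 at shield (-2.31 ± 0.29, adjusted p = 0.000283), on 1 of 2 features. The ligand *ndr2* (Cyclops) gave 9.81, 9.65 and 9.76 at 90% epiboly, against 9.75, 9.95 and 9.997 at shield, with overlapping stages (-0.16 ± 0.15, adjusted p = 0.559). At the receptor level *acvr1ba* was at 8.94, 8.94 and 9.03 at 90% epiboly, against 10.08, 10.17 and 10.21 at shield (-1.18 ± 0.15), and the co-receptor *tdgf1* at 12.42, 12.11 and 12.11 at 90% epiboly, against 13.02, 13.06 and 13.42 at shield (-0.95 ± 0.18). The TF *foxh1* fell to 10.82, 10.50 and 10.32 at 90% epiboly, against 11.45, 11.78 and 11.95 at shield (-1.18 ± 0.18, adjusted p = 0.0012), on 3 of 3 features. The 5 that passed were thus the ligands *ndr1* and *gdf3*, a receptor, the co-receptor and the TF. The receptors *acvr2aa* (0.34) and *acvr2ba* (0.33), the Smads *smad2* (0.25), *smad3a* (-0.35) and *smad3b* (0.64) and the inhibitors *lft1* (-0.45) and *lft2* (0.55) did not pass. For *lft2* the lowest adjusted p among alternative limma fits was 0.0057.

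The regulators of mesendoderm and endoderm did not move as one. The list holds targets of Nodal, and also *eomesa* and *mxtx2*, which the paper's account of earlier work places upstream of Nodal production. Of 15, 4 fell (range 3 to 4) and 3 rose (range 0 to 2, lowest without shield replicate 3), with a median of -0.15. Beside *mixl1*, the endoderm determinant *sox32* (Casanova) gave 11.41, 11.35 and 11.09 at 90% epiboly, against 12.32, 12.13 and 12.43 at shield (-1.01 ± 0.19, adjusted p = 0.0038). The T-box gene *eomesa* gave 6.64, 6.52 and 6.64 at 90% epiboly, against 7.21, 7.74 and 7.71 at shield (-0.95 ± 0.19, adjusted p = 0.0047). Both therefore had lower signals at 90% epiboly in every sample. *sox17*, the direct target of Sox32 in endoderm, gave 7.23, 7.003 and 6.68 at 90% epiboly, against 6.86, 6.38 and 6.42 at shield (0.42 ± 0.27, adjusted p = 0.378). *gata5* was at 0.30, *gata6* at -0.41, *foxa2* at 0.59, *foxa3* at -0.65, *mxtx2* at -0.62, *hhex* at -0.15 and *sebox* at -0.12, and none of these 7 passed in the main fit. Among alternative limma fits the lowest adjusted p was 0.0078 for *foxa3* and 0.0125 for *hhex*. The summed signal of the 3 defining markers of endoderm (*sox32*, *sox17* and *foxa2*) was 12.01 to 12.18 at 90% epiboly, against 12.41 to 12.77 at shield, and 1 of them, *sox32*, fell. That gene is the brightest of the 3 and leads the sum, while *sox17* and *foxa2* had positive differences that did not pass. The forkhead gene *foxa1* had 3 of 3 features up (0.98 ± 0.23, adjusted p = 0.0146), a call lost without 90% epiboly or shield replicate 3 (adjusted p = 0.072 and 0.0708). *prdm1a* (Blimp1) gave 10.96, 10.43 and 10.51 at 90% epiboly, against 9.78, 8.30 and 8.89 at shield (1.64 ± 0.39, adjusted p = 0.0132), and lost its call without shield replicate 2 or 3 (adjusted p = 0.055 and 0.0521). *mxtx1* and *cxcr4a* passed in opposite directions, at -0.87 and 0.57. Without each of the 6 arrays *cxcr4a* had an adjusted p of 0.0522 to 0.149, and *mxtx1* one of 0.0685 to 0.146 without 90% epiboly replicate 1, 2 or 3 or shield replicate 2 or 3. All 3 features of *cxcr4a* passed but disagreed. The brightest was up (adjusted p = 0.0427), and 2 were down at -0.77 and -0.76 (adjusted p = 0.0215 and 0.0483). The gene is counted among the 3 that rose by its brightest feature alone. The chemokines that guide endoderm, *cxcl12a* and *cxcl12b*, were at 0.17 and 1.05. The second passed (adjusted p = 0.0339), yet not without any of the 3 arrays of 90% epiboly (0.0824 to 0.0872) or without shield replicate 2 or 3 (0.126 and 0.109).

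**Figure D3:**
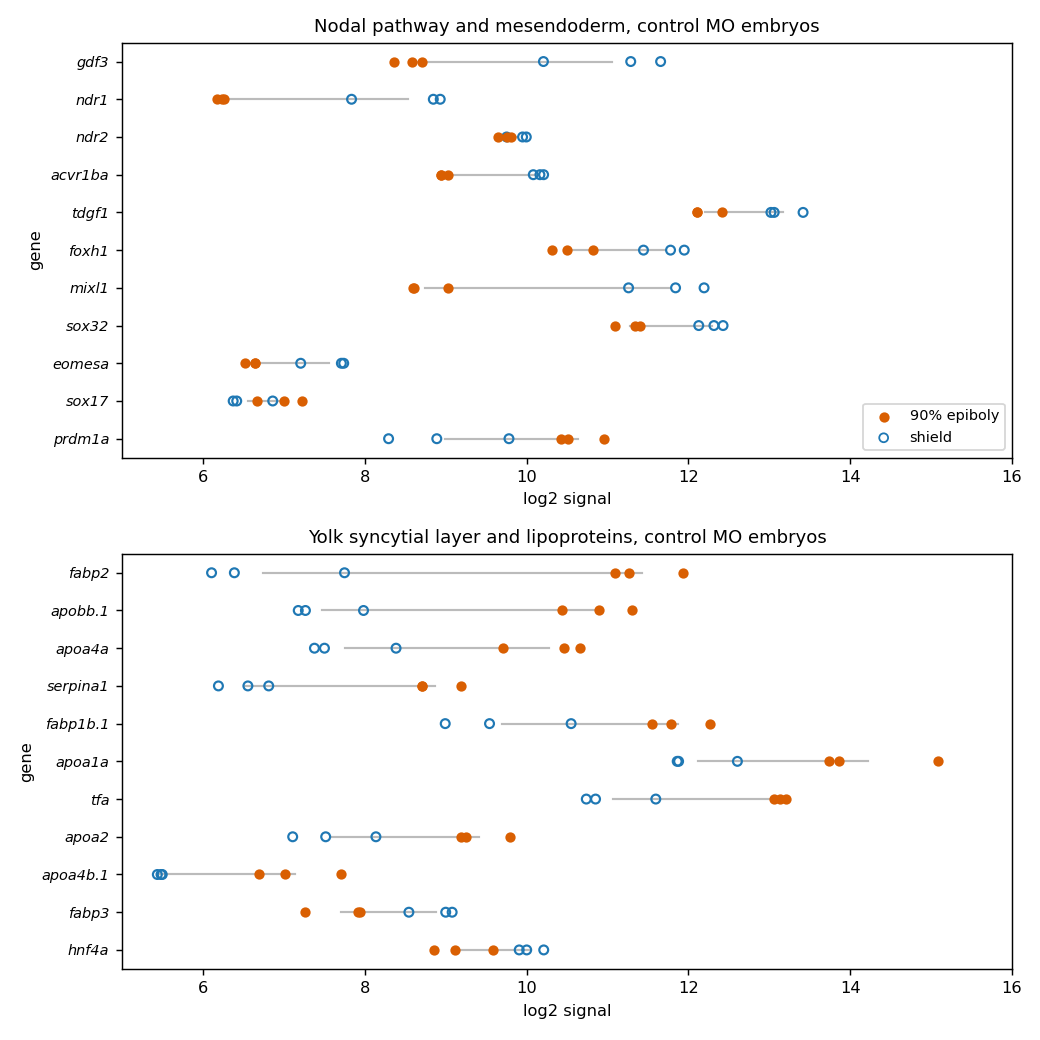
Log2 signal per sample (horizontal axis) of Nodal pathway and mesendoderm genes (upper panel) and of yolk syncytial layer and lipoprotein genes (lower panel) in control MO embryos. Filled orange circles are the 3 samples at 90% epiboly, open blue circles the 3 at shield, and lines join the means. In the upper panel *ndr1*, *mixl1* and *gdf3* lie lower at 90% epiboly while *ndr2* and *sox17* overlap, and in the lower panel all genes but *fabp3* and *hnf4a* lie higher.

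Organizer genes changed in both directions. Of 22 organizer and prechordal plate genes 3 rose (range 2 to 3) and 3 fell (range 1 to 4, lowest without 90% epiboly replicate 1, 2 or 3 or shield replicate 3), against 7.19% and 8.28% of all genes, with a median of -0.03. *lhx1a* (Lim1), an early organizer TF, gave 7.41, 6.92 and 6.74 at 90% epiboly, against 8.81, 9.22 and 9.51 at shield (-2.16 ± 0.23, adjusted p = 0.000106). *frzb*, a secreted Wnt antagonist of the prechordal plate, gave 12.73, 12.58 and 12.56 at 90% epiboly, against 11.29, 11.81 and 11.39 at shield (1.12 ± 0.19, adjusted p = 0.002). Neither gene had overlapping stages. *gsc*, the classic organizer TF, gave 10.39, 10.17 and 10.08 at 90% epiboly, against 10.43, 10.58 and 10.53 at shield (-0.30 ± 0.22, adjusted p = 0.448). *noto* (floating head), needed for notochord fate, gave 10.56, 10.36 and 10.66 at 90% epiboly, against 11.20, 10.71 and 10.98 at shield (-0.44 ± 0.18, adjusted p = 0.147). Both lay lower at 90% epiboly without passing. For organizer and axial mesoderm the summed signal of the 5 defining markers was 12.95 to 13.19 at 90% epiboly, against 13.01 to 13.11 at shield, with overlapping ranges.

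Genes of the notochord and floor plate and the Hedgehog pathway leaned upward. In the first list 7 of 25 rose (range 4 to 7, lowest without 90% epiboly replicate 2) and 2 fell (2 each time). In the second 8 of 21 rose (range 4 to 8, lowest without replicate 3 of either stage) and none fell. The medians were 0.32 and 0.59. *twist2*, a bHLH gene of the early notochord, gave 9.30, 9.19 and 9.43 at 90% epiboly, against 7.86, 6.97 and 6.88 at shield (2.07 ± 0.31, adjusted p = 0.000922). *plod1a*, a collagen hydroxylase, rose by 1.32, and *lamb1a*, a laminin chain of the notochord sheath, by 1.02. The ligand *shha* gave 8.75, 8.33 and 8.64 at 90% epiboly, against 7.99, 7.02 and 7.45 at shield (1.09 ± 0.23, adjusted p = 0.008). The co-receptor *cdon*, which binds Hedgehog proteins, gave 9.51, 9.73 and 10.01 at 90% epiboly, against 7.92, 8.80 and 8.74 at shield (1.26 ± 0.22), with 4 of 5 features passing. The TF *gli2b*, which answers the signal, gave 7.72, 8.16 and 7.96 at 90% epiboly, against 6.95, 6.14 and 6.19 at shield (1.52 ± 0.25). In that list 13 genes did not pass and 7 had a negative difference. Ligand, co-receptor and TF were all higher, but they were named for a small p among members that rose. Against this, *tbxta*, the T-box gene of the margin and notochord that the *ta* MO targets, gave 9.44, 9.15 and 9.14 at 90% epiboly, against 9.99, 10.60 and 10.50 at shield (-1.12 ± 0.20, adjusted p = 0.003). The forkhead gene *foxa* gave 11.30, 10.98 and 11.05 at 90% epiboly, against 11.96, 12.23 and 12.36 at shield (-1.07 ± 0.20, adjusted p = 0.0041).

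In the mesoderm beside the axis more members rose than fell, and most did not pass. Of 28 measured genes of presomitic and paraxial mesoderm 9 rose (range 5 to 10, lowest without shield replicate 3) and 3 fell (3 each time), with a median of 0.26. The summed signal of the 3 defining markers of the margin and paraxial mesoderm (*msgn1*, *tbx16* and *mespaa*) was 13.13 to 13.38 on the log2 scale at 90% epiboly, against 12.52 to 12.73 at shield, although 1 of the 3 rose and 2 fell. *msgn1*, a bHLH gene that drives cells into the presomitic state, gave 12.98, 13.08 and 13.21 at 90% epiboly, against 12.20, 11.93 and 11.97 at shield (1.06 ± 0.15, adjusted p = 0.000713), on 5 of 5 features. The T-box gene *tbx6* (fused somites) gave 7.66, 7.88 and 8.37 at 90% epiboly, against 6.67, 6.76 and 6.19 at shield (1.43 ± 0.21), and both its features rose. Its relative *tbx16l* gave 11.79, 11.90 and 12.10 at 90% epiboly, against 10.92, 10.56 and 10.19 at shield (1.37 ± 0.20). *meox1*, a homeobox gene of the somite, gave 9.28, 9.79 and 10.25 at 90% epiboly, against 8.12, 8.25 and 8.30 at shield (1.55 ± 0.27, adjusted p = 0.0022). In each of these 4 genes the lowest sample at 90% epiboly lay above the highest at shield, as in 16.5% of all genes. All 4 were named for a small p among members that rose. *snai1a*, a repressor that lets mesoderm cells move, gave 12.51, 12.22 and 11.84 at 90% epiboly, against 13.33, 13.22 and 13.15 at shield (-1.05 ± 0.17, adjusted p = 0.0016). *mespaa*, a bHLH gene of the margin, gave 8.42, 8.14 and 8.17 at 90% epiboly, against 9.95, 9.15 and 9.45 at shield (-1.28 ± 0.22, adjusted p = 0.002). *tbx16* itself fell to 9.12, 9.17 and 9.73 at 90% epiboly, against 10.11, 10.46 and 10.47 at shield (-1.01 ± 0.21, adjusted p = 0.006). *myod1*, the muscle determination gene, was at 0.69 ± 0.19 (adjusted p = 0.032), a call lost without 90% epiboly replicate 2 or 3 (0.0763 and 0.134) or shield replicate 2 or 3 (0.0772 and 0.104). Of 44 muscle genes 10 rose (range 4 to 11, lowest without shield replicate 3) and 1 fell (range 0 to 2, lowest without 90% epiboly replicate 2 or shield replicate 3, highest without 90% epiboly replicate 1). *actc1a*, a cardiac type actin, gave 10.95, 10.65 and 10.99 at 90% epiboly, against 8.80, 8.84 and 9.30 at shield (1.88 ± 0.19, adjusted p = 5.62e-05), with all 4 features up.

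T-box genes taken as a family went both ways: of 19 measured, 12 did not pass, 3 rose (*tbx6*, *tbx16l* and *tbx3a*) and 4 fell (*tbxta*, *tbx16*, *eomesa* and *tbr1b*). So 15.8% rose and 21.1% fell, against 7.19% and 8.28% of all genes. *tbx3a*, known from ectoderm and later organs, gave 9.17, 9.50 and 9.39 at 90% epiboly, against 8.48, 7.93 and 7.86 at shield (1.26 ± 0.23). *tbr1b*, a gene of the later forebrain, lay under 6.56, among the dim features, at 90% epiboly but not at shield (6.26, 5.89 and 5.66 at 90% epiboly, against 6.65, 7.65 and 7.16 at shield, -1.22 ± 0.25). In the posterior body, 9 of 31 tailbud genes rose (range 5 to 11, lowest without replicate 3 of either stage) and 6 fell (range 3 to 7, lowest without replicate 3 of either stage). The caudal gene *cdx1a*, which helps set posterior identity, gave 8.99, 9.98 and 9.95 at 90% epiboly, against 8.17, 6.77 and 7.11 at shield (2.29 ± 0.35). Its relative *cdx4* gave 12.81, 12.79 and 13.20 at 90% epiboly, against 11.94, 10.96 and 11.39 at shield (1.501 ± 0.32). Neither had overlapping stages. Of 32 genes of ventral and lateral mesoderm, blood and vessels 4 rose (range 3 to 6) and 5 fell (range 3 to 5, lowest without replicate 3 of either stage), with a median of -0.17. That is 12.5% and 15.6%, against 7.19% and 8.28% of all genes. *drl* (draculin), an early lateral mesoderm gene, gave 7.87, 7.73 and 7.46 at 90% epiboly, against 8.84, 9.37 and 9.48 at shield (-1.55 ± 0.22, adjusted p = 0.000619). *hand2*, a later heart and lateral plate TF, gave 6.74, 6.81 and 7.34 at 90% epiboly, against 6.17, 5.86 and 5.89 at shield (0.99 ± 0.19, adjusted p = 0.0043). The first was lower and the second higher at 90% epiboly in every sample.

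Regional genes of the neural plate that passed were nearly all higher at 90% epiboly. Of 44 genes of forebrain, eye and midbrain 7 rose (range 7 to 11, highest without shield replicate 1) and 1 fell (1 each time). Of 30 genes of hindbrain and spinal cord 11 rose (range 7 to 12, lowest without replicate 3 of either stage) and 1 fell (range 0 to 2, lowest without 90% epiboly replicate 3, highest without shield replicate 1 or 2), a share of 36.7% against 7.19% of all genes. The medians were 0.29 and 0.51. The summed signal of the 5 defining markers of the neural plate was 13.41 to 13.59 on the log2 scale at 90% epiboly, against 14.04 to 14.16 at shield, which is lower in every sample. Of these markers 2 rose (*otx2b* and *zic1*) and 2 fell, *sox3* among them. *sox3* is among the bright markers that lead this sum and is also listed with the pluripotency factors. The lower sum therefore does not describe the neural plate as a whole. *fezf2*, a zinc finger gene of the forebrain, gave 9.60, 9.13 and 9.18 at 90% epiboly, against 7.46, 7.11 and 6.68 at shield (2.22 ± 0.23, adjusted p = 8.16e-05). *pax6b*, of eye and forebrain, gave 9.33, 9.71 and 9.98 at 90% epiboly, against 7.89, 7.51 and 7.09 at shield (2.18 ± 0.30, adjusted p = 0.000476). *otx2b* gave 11.03, 11.00 and 11.30 at 90% epiboly, against 9.62, 7.75 and 8.12 at shield (2.62 ± 0.46), where the highest shield value belonged to replicate 1. All 3 were separated by more than 1 log2 unit between the nearest samples of the stages. In the posterior brain *meis3*, a cofactor of Hox proteins in the hindbrain, gave 10.97, 10.82 and 11.05 at 90% epiboly, against 9.23, 8.51 and 8.61 at shield (2.16 ± 0.21, adjusted p = 5.18e-05), and *meis1b* rose by 1.89. Among genes known from the midbrain and hindbrain boundary, the ligand *fgf17* was lower at 90% epiboly (7.50, 7.39 and 7.60 at 90% epiboly, against 8.32, 8.72 and 8.88 at shield, -1.14 ± 0.24, adjusted p = 0.0076). RNA of whole embryos does not show where in the embryo that change lay. By their brightest features *pax2a* (0.82 ± 0.29, adjusted p = 0.0808) and *her5* (0.32 ± 0.23, adjusted p = 0.447) did not pass. All features of *pax2a* had positive differences, however, and 2 others passed upward at 1.34 and 1.33 (adjusted p = 0.0321 and 0.0142). By the rule of agreeing features *pax2a* therefore rose.

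Hox genes give cells their place along the body, and 18 of 45 measured rose (range 11 to 18, lowest without replicate 3 of either stage) and 2 fell (range 0 to 3, lowest without 90% epiboly replicate 3), or 40% rising against 7.19% of all genes. In bands drawn after the values were seen, of 19 genes in paralogue groups 3 to 8, 11 rose and none fell, of 21 in the more posterior groups 9 to 13 6 rose and 1 fell, and of 5 in groups 1 and 2 1 rose and 1 fell. Beside *hoxc3a*, *hoxb3a* gave 7.74, 8.03 and 8.65 at 90% epiboly, against 5.95, 6.22 and 5.94 at shield (2.11 ± 0.22, adjusted p = 0.000101). *hoxb5b* gave 8.11, 7.94 and 8.77 at 90% epiboly, against 6.14, 6.68 and 6.15 at shield (1.95 ± 0.27). *hoxb7a* gave 7.90, 8.08 and 8.72 at 90% epiboly, against 6.61, 6.05 and 5.48 at shield (2.19 ± 0.28). The shield means of these 3 genes all lay under 6.56, among the dim features. The 2 that fell were *hoxa1a* and *hoxd11a*, and both calls rested on single arrays: *hoxa1a* (-1.16 ± 0.28) had an adjusted p of 0.0798 without 90% epiboly replicate 3, and *hoxd11a* (-1.09 ± 0.29) one of 0.0516 to 0.108 without 90% epiboly replicate 1 or 3 or shield replicate 1 or 3. Of the retinoic acid pathway, which sets Hox expression in the hindbrain, 8 of 28 genes rose (range 2 to 8, lowest without shield replicate 3) and 1 fell (range 0 to 1, lowest without 90% epiboly replicate 1, 2 or 3 or shield replicate 1 or 3). The binding protein *crabp2b* gave 12.52, 12.82 and 12.96 at 90% epiboly, against 11.79, 12.08 and 11.52 at shield (0.97 ± 0.18, adjusted p = 0.0036). The retinaldehyde reductase *dhrs3a* gave 6.28, 6.57 and 6.94 at 90% epiboly, against 5.80, 5.83 and 5.48 at shield (0.89 ± 0.19, adjusted p = 0.0079).

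**Figure D4:**
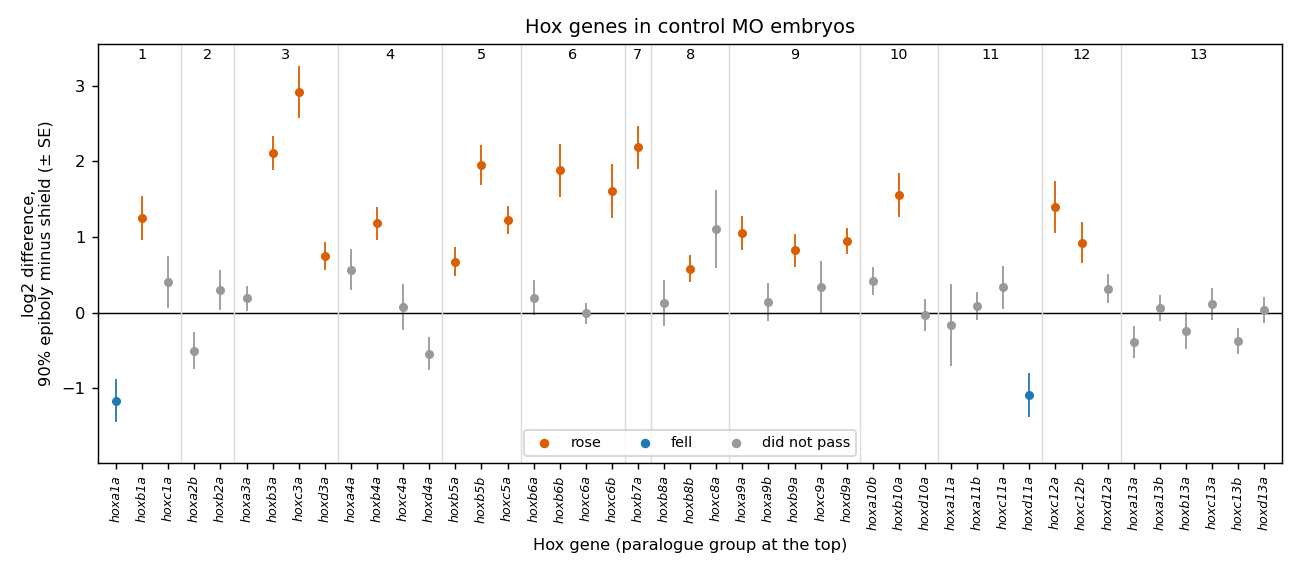
Log2 difference of 90% epiboly minus shield in control MO embryos (vertical axis, bars are SE from limma) for the 45 measured Hox genes, ordered by paralogue group from anterior (1) to posterior (13) on the horizontal axis. Orange points rose and blue points fell at an adjusted p of 0.05, and grey points did not pass. The 5 highest values, led by 2.92 for *hoxc3a*, lie in groups 3, 5, 6 and 7.

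Early neural genes split. Of 32 SoxB, Zic and pan-neural genes 4 rose (range 2 to 5, lowest without 90% epiboly replicate 2 or shield replicate 3) and 6 fell (range 2 to 4, lowest without 90% epiboly replicate 3). *zic1* gave 9.62, 9.16 and 9.49 at 90% epiboly, against 7.67, 6.59 and 6.52 at shield (2.495 ± 0.33). *znf703*, a zinc finger repressor, gave 11.79, 11.43 and 11.32 at 90% epiboly, against 10.35, 10.17 and 10.29 at shield (1.24 ± 0.18, adjusted p = 0.000725), while *sox3* and *sox11b* (-0.65 ± 0.15) fell. In Notch signalling and primary neurogenesis no gene fell and 12 of 38 rose (range 7 to 11, lowest without shield replicate 3), or 31.6% against 7.19%. The ligand *dla* (deltaA) gave 10.23, 10.16 and 10.49 at 90% epiboly, against 9.20, 8.36 and 8.39 at shield (1.65 ± 0.25, adjusted p = 0.0011). The proneural gene *neurog1* gave 7.30, 7.53 and 7.90 at 90% epiboly, against 6.53, 5.71 and 5.94 at shield (1.51 ± 0.25, adjusted p = 0.0017). *her15.1*, a repressor that Notch switches on, gave 8.58, 8.67 and 9.31 at 90% epiboly, against 7.86, 6.73 and 6.99 at shield (1.66 ± 0.28, adjusted p = 0.002). The receptor *notch2* rose by 0.91. Ligand, receptor, target and proneural gene were all higher at 90% epiboly, but they were named for a small p among members that rose. Of the 38, 26 did not pass and 8 had a negative difference. Probes may not separate *her15.1* from its near-identical tandem copy.

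Regulators of the neural plate border and the epidermis that passed were mostly higher as well. In this list 10 of 37 genes rose (range 9 to 12) and 1 fell (range 0 to 1, lowest without 90% epiboly replicate 2 or 3 or shield replicate 3), with a median of 0.41. *tp63*, the TF of basal epidermis, gave 9.12, 9.17 and 9.49 at 90% epiboly, against 7.31, 6.82 and 7.30 at shield (2.12 ± 0.23, adjusted p = 0.000118). *klf2a* gave 10.20, 10.57 and 10.58 at 90% epiboly, against 7.89, 7.25 and 8.24 at shield (2.65 ± 0.23). Homeobox genes of the Msx family mark the border. *msx1a* gave 9.91, 10.05 and 10.03 at 90% epiboly, against 8.33, 7.06 and 7.48 at shield (2.37 ± 0.28). *msx2b* gave 7.56, 7.59 and 7.92 at 90% epiboly, against 6.55, 5.81 and 5.69 at shield (1.67 ± 0.23). Every one of these samples at 90% epiboly exceeded every shield sample, as did those of 16.5% of all genes. The genes were named for a small p among members that rose, so this adds no support. In the enveloping layer 12 of 51 genes rose (range 3 to 13, lowest without 90% epiboly replicate 3) and 8 fell (range 4 to 8, lowest without 90% epiboly replicate 3). The desmosomal plaque protein *dspa* gave 11.00, 11.24 and 11.53 at 90% epiboly, against 10.24, 10.25 and 10.20 at shield (1.03 ± 0.17, adjusted p = 0.0018). The membrane binding protein *anxa2a* gave 9.003, 9.28 and 8.35 at 90% epiboly, against 7.46, 6.33 and 5.996 at shield (2.29 ± 0.46, adjusted p = 0.0053). *agr1*, a secretory pathway protein, rose by 1.69. *grhl2a*, a grainyhead TF of epithelia, gave 8.15, 7.73 and 7.39 at 90% epiboly, against 8.97, 9.39 and 9.45 at shield (-1.51 ± 0.21, adjusted p = 0.000555). The tight junction gene *cldn7b* gave 11.44, 11.48 and 11.36 at 90% epiboly, against 12.28, 12.69 and 12.72 at shield (-1.14 ± 0.20), with all 5 features down. The keratin *krt4*, a marker of the layer that is bright on every array, gave 15.64, 15.31 and 15.51 at 90% epiboly, against 15.198, 15.00 and 15.31 at shield (0.32 ± 0.17, adjusted p = 0.282) and did not pass. Junction genes of the layer thus lay on both sides, *dspa* up and *cldn7b* down. The summed signal of its 6 measured defining markers was 17.52 to 17.69 on the log2 scale at 90% epiboly, against 17.06 to 17.41 at shield. None of the 6 rose and 1 fell, and such a sum is led by its brightest features. What the amount of the layer contributed to these values was not tested. Of 36 claudins 6 fell (range 5 to 6) and 4 rose (range 1 to 3, lowest without 90% epiboly replicate 2 or 3 or shield replicate 3), among them the egg claudin *cldnd* (-2.29 ± 0.35) and, rising, *cldn5a* (1.55 ± 0.29), the claudin of later brain and vessels. Among claudins 16.7% thus fell and 11.1% rose, against 8.28% and 7.19% of all genes.

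Genes of the yolk syncytial layer, among them those of the lipoproteins that carry yolk lipid to the embryo, were mostly higher where they passed. Of 36 genes of this list 13 rose (range 10 to 13) and 3 fell (range 2 to 3), or 36.1% against 7.19% of all genes. Beside *apobb.1* and *fabp2*, the apolipoprotein gene *apoa4a* gave 9.71, 10.46 and 10.66 at 90% epiboly, against 8.39, 7.50 and 7.38 at shield (2.52 ± 0.35, adjusted p = 0.000578). *apoa1a*, the main apolipoprotein of high-density particles, gave 13.86, 13.73 and 15.09 at 90% epiboly, against 12.61, 11.86 and 11.88 at shield (2.11 ± 0.41, adjusted p = 0.0048). *apoa2* rose by 1.83 and *apoa4b.1* by 1.66, and the shield values of *apoa4b.1* were dim (5.48, 5.50 and 5.44). The secreted protease inhibitor *serpina1* gave 8.71, 8.70 and 9.19 at 90% epiboly, against 6.81, 6.56 and 6.19 at shield (2.35 ± 0.27, adjusted p = 0.000147). Transferrin, *tfa*, which was chosen after its values were seen, gave 13.05, 13.20 and 13.13 at 90% epiboly, against 11.60, 10.74 and 10.85 at shield (2.07 ± 0.32, adjusted p = 0.001), with all 7 features up by 1.90 to 2.2. The fatty acid binding protein *fabp1b.1* gave 11.55, 11.79 and 12.26 at 90% epiboly, against 10.55, 8.995 and 9.54 at shield (2.17 ± 0.40). In *apoa1a* replicate 3 of 90% epiboly stood above the other 2. The genes given so far all rose, but they were chosen for a small p among those that rose or after their values were seen. Of the 36 in the list, 20 did not pass. The binding protein *fabp3*, known from muscle, and the TF *hnf4a* went the other way. *fabp3* gave 7.95, 7.91 and 7.26 at 90% epiboly, against 9.08, 8.55 and 9.001 at shield (-1.17 ± 0.21, adjusted p = 0.0027). *hnf4a* gave 8.86, 9.12 and 9.59 at 90% epiboly, against 10.21, 9.91 and 10.002 at shield (-0.85 ± 0.20, adjusted p = 0.0114), a call not reached when its features were averaged (adjusted p = 0.0665). The summed signal of the layer's 4 measured defining markers was 15.08 to 15.79 on the log2 scale at 90% epiboly, against 15.25 to 15.58 at shield, with overlapping ranges. An apolipoprotein gene is among the 4, of which none rose and 2 fell. The layer's homeobox genes *mxtx1* and *mxtx2* were at -0.87 and -0.62.

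Among the signalling pathways beside Nodal, 10 of 50 Wnt genes rose (range 3 to 10, lowest without shield replicate 3) and 1 fell (range 1 to 2, highest without shield replicate 1). The receptor *fzd10* gave 8.46, 8.47 and 8.63 at 90% epiboly, against 7.63, 7.43 and 7.32 at shield (1.06 ± 0.18, adjusted p = 0.0017) on 3 of 3 features, and the receptor *fzd3a* gave 9.94, 10.28 and 10.30 at 90% epiboly, against 9.11, 8.73 and 8.31 at shield (1.46 ± 0.29, adjusted p = 0.0048). *notum1a*, a secreted enzyme that inactivates Wnt ligands, gave 9.29, 9.15 and 9.08 at 90% epiboly, against 10.36, 10.19 and 10.86 at shield (-1.30 ± 0.21, adjusted p = 0.0012). Both receptors were higher, while secreted inhibitors went both ways, since *frzb*, given with the organizer genes, is in this list too and rose by 1.12. These Wnt genes were named for a small p among members that rose or fell, and 39 of the 50 did not pass. In the Fgf list 6 of 34 fell (range 4 to 6) and 2 rose (range 0 to 1, lowest without 90% epiboly replicate 2 or shield replicate 2 or 3). Shares were 17.6% and 5.88%, against 8.28% and 7.19% of all genes. The ligand *fgf3* gave 7.21, 6.68 and 6.95 at 90% epiboly, against 7.81, 8.04 and 7.91 at shield (-0.97 ± 0.18, adjusted p = 0.0032). *dusp4*, a phosphatase of ERK that Fgf induces, gave 8.72, 8.99 and 9.05 at 90% epiboly, against 9.66, 10.18 and 9.90 at shield (-0.998 ± 0.22, adjusted p = 0.0088). In the Bmp list 5 of 41 rose (range 3 to 5, lowest without replicate 3 of either stage) and 4 fell (range 1 to 5, lowest without replicate 3 of either stage), shares of 12.2% and 9.76% that lie near the 7.19% and 8.28% of all genes. The antagonist *fsta* gave 8.63, 8.75 and 9.18 at 90% epiboly, against 6.19, 5.75 and 6.05 at shield (2.86 ± 0.31). The target *msx1b* gave 9.63, 9.46 and 9.39 at 90% epiboly, against 8.49, 7.39 and 7.61 at shield (1.66 ± 0.28). *vent*, a ventral homeobox target, gave 11.30, 11.11 and 11.55 at 90% epiboly, against 12.02, 12.29 and 12.27 at shield (-0.87 ± 0.19, adjusted p = 0.0089). Antagonist and one target thus rose while another target fell.

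Cell cycle genes changed in both directions. Of 41 mitotic genes 8 fell (range 5 to 8, lowest without 90% epiboly replicate 3) and 5 rose (range 1 to 3, lowest without 90% epiboly replicate 2 or 3 or shield replicate 3), which are 19.5% and 12.2% against 8.28% and 7.19% of all genes. *ccnb1* (cyclin B1) gave 13.15, 13.04 and 13.05 at 90% epiboly, against 13.91, 13.85 and 14.14 at shield (-0.88 ± 0.15, adjusted p = 0.002) on all 6 features, *cdc20*, which activates the anaphase complex, gave 12.75, 12.64 and 12.55 at 90% epiboly, against 13.28, 13.42 and 13.59 at shield (-0.78 ± 0.14), and *ckap5*, a microtubule polymerase, rose by 0.77. Of 59 replication genes 7 fell (range 3 to 7, lowest without replicate 2 or 3 of either stage) and 6 rose (range 3 to 6, lowest without 90% epiboly replicate 2), shares of 11.9% and 10.2% that lie near those of all genes. *ccne1* (cyclin E1), which starts S phase, gave 10.30, 10.78 and 10.26 at 90% epiboly, against 12.13, 12.22 and 12.19 at shield (-1.73 ± 0.21, adjusted p = 0.000205). The histone chaperone *asf1bb* gave 8.30, 8.38 and 8.44 at 90% epiboly, against 7.75, 7.51 and 7.06 at shield (0.93 ± 0.20, adjusted p = 0.0075). The cyclin genes named from both lists were lower, and each was named for a small p among members that fell. Of the G1 and arrest list 4 of 32 fell (range 2 to 4, lowest without 90% epiboly replicate 2 or shield replicate 3) and none rose. The 12.5% that fell lies near the 8.28% of all genes. *mdm2*, the ubiquitin ligase that restrains p53, gave 9.69, 10.15 and 10.20 at 90% epiboly, against 11.39, 11.06 and 11.17 at shield (-1.19 ± 0.18, adjusted p = 0.00079). *plk3*, a stress kinase that p53 can induce, gave 9.66, 9.50 and 9.76 at 90% epiboly, against 10.80, 10.93 and 11.36 at shield (-1.39 ± 0.21). In the p53 and apoptosis list 4 of 29 fell (range 3 to 5) and the caspase *casp3b* alone rose (8.98, 9.86 and 10.08 at 90% epiboly, against 7.82, 7.05 and 6.36 at shield, 2.57 ± 0.35), on 1 of 2 features. These shares were 13.8% and 3.45%, against 8.28% and 7.19% of all genes.

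Genes of adhesion, matrix and cell movement changed in both directions, with 17 of 79 up (range 9 to 14, lowest without 90% epiboly replicate 2 or 3 or shield replicate 3) and 7 down (range 6 to 8). *itga6a* gave 9.56, 9.50 and 9.52 at 90% epiboly, against 6.86, 6.36 and 6.104 at shield (3.08 ± 0.21, adjusted p = 3.51e-06), and its other features differed by 1.28 and 0.28. The axon guidance receptor *robo3* gave 9.38, 9.90 and 10.28 at 90% epiboly, against 8.17, 7.87 and 7.998 at shield (1.84 ± 0.21, adjusted p = 0.000138) on 3 of 3 features. *pcdh18a*, a protocadherin, rose by 1.23. *snai2*, a repressor of E-cadherin in moving cells, gave 7.34, 7.64 and 7.27 at 90% epiboly, against 9.84, 9.46 and 8.81 at shield (-1.95 ± 0.28, adjusted p = 0.000718), with all 4 features down. The lowest value of this list was that of *cxcr4b* (-3.50), the receptor given with the germ plasm genes, so named receptors stood on both sides. Both Snail family repressors named, *snai1a* and *snai2*, fell, but each was named for a small p among members that fell.

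In metabolism, 7 of 35 genes of glycolysis and lactate fell (range 6 to 10) and 2 rose (range 0 to 2, lowest without replicate 3 of either stage), with a median of -0.05. Beside *slc16a3b*, the pyruvate kinase *pkma* gave 7.43, 7.27 and 7.07 at 90% epiboly, against 8.40, 9.79 and 9.18 at shield (-1.87 ± 0.33, adjusted p = 0.0023) with 5 of 6 features passing. The isomerase *tpi1b* gave 8.93, 8.98 and 8.66 at 90% epiboly, against 10.13, 9.57 and 9.99 at shield (-1.04 ± 0.19). *gapdh*, often used as a reference gene, gave 10.92, 10.77 and 10.83 at 90% epiboly, against 11.69, 11.87 and 11.79 at shield (-0.94 ± 0.17, adjusted p = 0.0031). A gene used to normalise other assays was thus lower at 90% epiboly by 1.92-fold. Of 15 measured reference genes 3 fell (range 1 to 3, lowest without 90% epiboly replicate 3), *gapdh* among them, and 1 rose (1 each time). The other 11 did not pass, and the median of the 15 was -0.03. Of 74 ribosomal protein genes 67 had a positive difference and the median was 0.30, yet 1 passed (range 0 to 8, lowest without replicate 2 or 3 of either stage, highest without shield replicate 1) and none fell. That one was *rpl3*, at 0.68 ± 0.19 (adjusted p = 0.0296, and 0.0611 to 0.121 without the same 4 arrays). Of 35 heat shock and chaperone genes 5 rose (range 3 to 6, lowest without 90% epiboly replicate 2 or shield replicate 3) and 2 fell (range 0 to 1, lowest without 90% epiboly replicate 3). Shares were 14.3% and 5.71%, against 7.19% and 8.28% of all genes. *hsp90aa1.2* gave 13.36, 13.58 and 13.42 at 90% epiboly, against 10.40, 10.66 and 11.77 at shield (2.51 ± 0.32). *serpinh1b* (Hsp47), the chaperone of collagen, gave 10.43, 11.26 and 10.99 at 90% epiboly, against 9.72, 8.32 and 9.13 at shield (1.84 ± 0.31, adjusted p = 0.0017). Of 56 splicing factors 9 fell (range 3 to 9, lowest without 90% epiboly replicate 2 or shield replicate 3) and none rose, led by the core protein *snrpd3* (11.37, 11.43 and 11.28 at 90% epiboly, against 13.26, 13.03 and 13.21 at shield, -1.81 ± 0.16), whose second feature did not pass. In this list 16.1% fell, against 8.28% of all genes.

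The same interval in double MO embryos, read from 6 other arrays, gave 2842 features that rose and 3072 that fell (6.28% and 6.79%), or 1048 and 1093 genes (7.89% and 8.23%), and with agreeing features 314 genes rose and 556 fell (3.82% and 6.77%). Of the 321 genes that rose with agreeing features in control MO embryos, 197 (61.4%) did so in double MO embryos too and 297 had that sign in their brightest feature, and of the 556 that fell 402 (72.3%) did so and 538 had that sign. The difference between the stage changes passed for 63 features upward and 67 downward (0.139% and 0.148%), for 13 and 15 genes (0.0979% and 0.113%) and for 0 and 4 genes with agreeing features (0% and 0.0487%), with 1704 features at an unadjusted p under 0.05. It passed for 3 of the 321 genes and for none of the 556. The 3 were *rbm38*, *actc1a* and *msgn1*, all of the muscle or presomitic lists. *rbm38*, an RNA binding protein gene, gave 8.55, 8.78 and 8.61 at 90% epiboly, against 9.57, 10.11 and 10.43 at shield in double MO embryos, and 12.42, 12.13 and 12.41 at 90% epiboly, against 11.44, 11.02 and 11.28 at shield in control MO embryos (1.07 ± 0.21). The double minus control MO difference of these changes was -2.46 ± 0.30 (adjusted p = 0.000774). *actc1a* gave 8.66, 8.60 and 8.35 at 90% epiboly, against 8.87, 8.50 and 8.81 at shield in double MO embryos, where the stages overlapped, and its difference of changes was -2.07 ± 0.26 (adjusted p = 0.0013). *msgn1* gave 7.50, 7.58 and 7.45 at 90% epiboly, against 7.45, 7.72 and 7.75 at shield in double MO embryos, for a difference of changes of -1.18 ± 0.22 (adjusted p = 0.0359). With each of the 12 arrays left out in turn, *rbm38* and *actc1a* kept this call, and *msgn1* lost it in 10 omissions (adjusted p up to 0.143), keeping it only without shield replicate 1 of control MO or of double MO embryos. In these 3 genes the rise of control MO embryos was absent from the double MO samples, with *rbm38* lower at 90% epiboly there. For *msgn1* control MO embryos averaged 13.09 at 90% epiboly and 12.03 at shield. Its double MO signal thus lay lower at both stages, shield included.

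**Figure D5:**
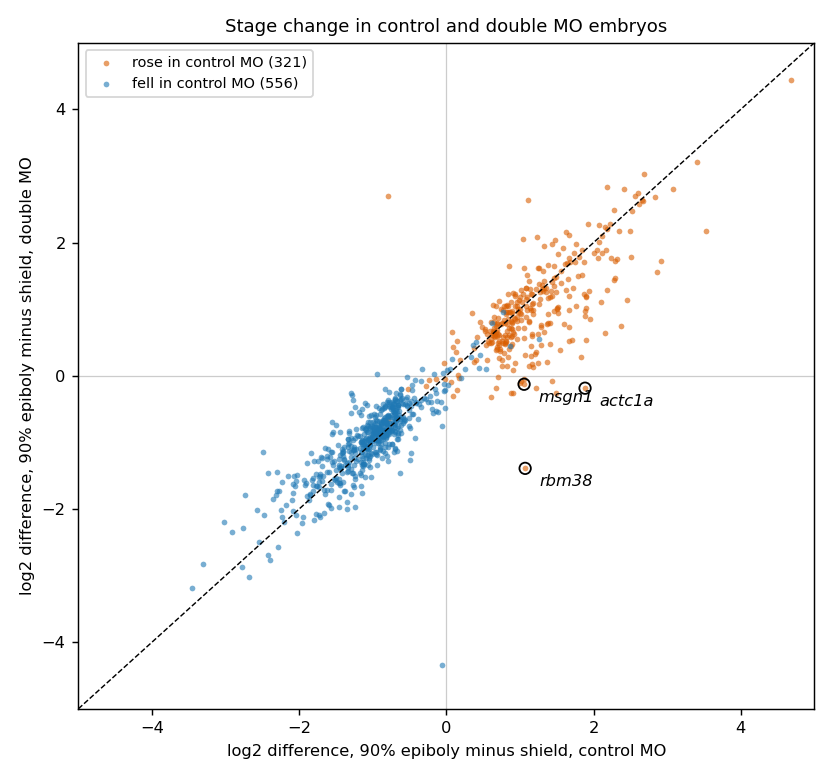
Log2 difference of 90% epiboly minus shield in control MO embryos (horizontal axis) and in double MO embryos (vertical axis) for the 877 genes called with agreeing features in control MO embryos, from 6 arrays each, read from the feature with the highest mean. Orange points rose and blue points fell in control MO embryos, and the dashed line marks equal values. In 8 of the genes that rose and 16 of those that fell this feature had the opposite sign to the features that passed. The 3 genes with a called difference, *rbm38*, *actc1a* and *msgn1*, are named and lie below the line.

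Other genes kept close values in both kinds of embryo. The stage changes in double and control MO embryos were 4.43 and 4.68 for *fabp2*, 3.203 and 3.40 for *apobb.1*, 2.63 and 2.65 for *klf2a*, 2.01 and 2.07 for *tfa*, and -3.19 and -3.45 for *ccna1*. Wider gaps that did not pass were seen for *meis3* (0.64 and 2.16, adjusted p = 0.0613 for the difference), *tbx6* (-0.08 and 1.43, 0.0606), *hoxb4a* (0.13 and 1.18, 0.629), *fzd10* (-0.05 and 1.06, 0.169) and *sox5* (-0.26 and 1.49, 0.114). A p that misses the threshold does not show that these changes were alike. Whether control and double MO samples of the same number were paired was not tested, so the arrays of both kinds may not be independent.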

How the data were processed

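Total RNA of whole embryos was hybridised to Agilent Zebrafish Gene Expression Microarrays (V3), 1 array per sample. The authors deposited a table of log2 values, normalised between arrays (array medians of 7.06 to 7.07), while how background correction and normalisation were done is not stated by the sources used here. These deposited values were used without further scaling. Features were named from the platform annotation, updated through RefSeq accessions and symbols: 26855 features had 1 symbol, of which 26847 matched, and 18365 had none and entered the tests unnamed. Groups followed the sample labels.

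All 12 arrays were fitted in limma 3.58.1 (R 4.3.3) with 4 groups of 3, lmFit and eBayes, without a replicate block (8 residual and 5.32 prior degrees of freedom), and p-values were adjusted by Benjamini and Hochberg over all 45220 features at a threshold of 0.05. A gene was read from its brightest feature by mean signal over the 12 arrays. The number of arrays limits the precision. The fit was tested on simulated data, in which 50 features were changed at each of 4 sizes. It recovered 0 of 50 at 0.5 log2 units, 18 of 50 (36%) at 1, and 49 of 50 (98%) at 2 and at 4, with 10 false calls. Real changes of 1 log2 unit or less can thus fail to pass. The simulation changed far fewer features than passed in the data, so its shares need not hold there. Alternatives were quantile and cyclic loess normalisation, median centring, a filter on the dimmest 40% of features, the 6 arrays of a contrast alone, a replicate block, trend and robust variance, array weights, a two-sided t-test (called the methods' t-test), averaged features, and omission of each array.

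Genes named in the text were the 15 that rose and the 15 that fell most among genes with 2 or more features of one sign, at least 2 of them passing and stages that do not overlap. From each list came up to 4 members with the smallest p in the direction with more calls and up to 2 in the other. All members of the Nodal and mesendoderm lists, which hold at most 16 genes, were named too. So were genes of the endoderm network, stage anchors, and those with a called difference between MOs. A further 18 were named after their values were seen. Members and lists were chosen with earlier results of these data known.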

Additional observations from a re-analysis of the deposited data

Results flagged for a closer look

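Among the genes named, the stage change differed between double MO and control MO embryos for 6, by limma's test of the difference itself. For *rbm38* the double minus control MO difference of the log2 changes was -2.46 ± 0.30 (adjusted p = 0.000774), for *actc1a* -2.07 ± 0.26 (adjusted p = 0.0013) and for *msgn1* -1.18 ± 0.22 (adjusted p = 0.0359). Over the 12 omissions of a single array the adjusted p ran from 0.000124 to 0.00420 for *rbm38*, from 0.000835 to 0.00661 for *actc1a* and from 0.0256 to 0.143 for *msgn1*, whose call was lost in 10 of them, that is, in all but those of shield replicate 1 of either MO.

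The other 3 were genes with a feature that was bright in the shield control arrays alone. For *arrdc1b* the difference was 8.90 ± 0.56, with 5.57, 5.49 and 5.67 at 90% epiboly, against 5.47, 5.57 and 6.06 at shield in double MO embryos, and 5.50, 5.65 and 5.99 at 90% epiboly, against 15.34, 15.41 and 13.46 at shield in control MO embryos. For *prkg2* the difference was 7.75 ± 0.20, with 5.65, 5.45 and 5.58 at 90% epiboly, against 5.52, 5.53 and 5.64 at shield in double MO embryos, and 5.78, 5.55 and 5.68 at 90% epiboly, against 13.35, 13.51 and 13.42 at shield in control MO embryos. For *tgfbr2b* the difference was 7.93 ± 0.46, with 5.95, 5.94 and 6.07 at 90% epiboly, against 5.95, 6.44 and 5.78 at shield in double MO embryos, and 5.68, 6.36 and 6.15 at 90% epiboly, against 13.13, 14.66 and 14.40 at shield in control MO embryos, and its second feature differed by 0.11 between the stages in control MO embryos. *arrdc1b* and *prkg2* are read by 1 feature each.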

How the results depend on the processing

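Of the 149 named genes that passed, 138 kept direction and call under each alternative except the methods' t-test, and the 30 genes that rose or fell most were all among them. With that t-test counted, 9 of the 149 and 2 of the 30 kept both. The t-test alone left 140 of the named genes without their call. With 1 control array left out in turn, the features that fell numbered 1846 to 3426 and those that rose 1386 to 2758. The genes that fell numbered 637 to 1199 and those that rose 506 to 968, and with agreeing features 310 to 572 fell and 177 to 362 rose. In double MO embryos 1650 to 3303 features fell and 1342 to 2811 rose when 1 double MO array was left out, with the lowest counts without 90% epiboly replicate 3 (1650 and 1342), without shield replicate 3 (1715 and 1419) and without 90% epiboly replicate 2 (1991 and 1658). Fewer arrays leave less residual freedom in each such fit. For control MO embryos counts also dropped by over 1.5 times without 90% epiboly replicate 2, to 1590 features and 566 genes that rose and, with agreeing features, to 202 genes that rose and 364 that fell. Without 90% epiboly replicate 3 the genes with agreeing features numbered 177 that rose and 310 that fell, and without shield replicate 3, which gave 1455 features that rose and 1907 that fell, they numbered 179 and 320.

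Array weights raised the features that rose to 4328, the genes to 1548 and the genes with agreeing features to 537. The methods' t-test, which takes the spread of each feature from its 6 arrays alone, passed 55 features upward and 73 downward after adjustment (4425 and 4776 at an unadjusted p under 0.05), 11 genes that rose and 27 that fell, and 1 and 2 genes with agreeing features. The cause of the first change was not tested. Quantile and cyclic loess normalization, centring on medians, leaving out dim features, trend and robust variance and the 6 control arrays alone kept each of these counts within 1.5 times. Averaging the features of a gene turned *cxcr4a* to -0.32 (adjusted p = 0.211), and *smad2*, which had not passed, to -0.10. Among other genes that had not passed, signs turned when 1 array was left out. Over the 6 omissions *gtf3aa* ran from -0.17 to 0.25, *hhex* from -0.33 to 0.0736, *sebox* from -0.39 to 0.0891 and *smad3a* from -0.64 to 0.10. Calls were also gained among named genes that had not passed, by 3 genes with array weights and 5 with averaged features. The lowest adjusted p of an alternative limma fit was 0.0057 for *lft2*, 0.0078 for *foxa3* and 0.0125 for *hhex*. It was 0.0195 for *pax2a*, 0.0229 for *mcm6* and 0.0463 for *krt4*.

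Samples of the 2 stages that share a replicate number did not deviate together (correlations of -0.20, -0.03 and -0.11). The numbers were therefore not read as pairs across stages. Pairing of control with double MO samples within a stage was not tested, and the test of their difference took them as independent. At shield, *otx2b* gave 9.62, 7.75 and 8.12 in control MO and 10.01, 8.19 and 8.67 in double MO embryos, the same order by number. *fabp2* kept its order too (7.75, 6.11 and 6.39 against 8.47, 6.28 and 6.54). The order differed for *rbm38* (11.44, 11.02 and 11.28 against 9.57, 10.11 and 10.43). With the replicate block 2771 features rose and 3402 fell in control MO embryos (1019 and 1174 genes, 349 and 600 with agreeing features), 3050 and 3351 in double MO embryos, and 62 and 62 for the difference, and of the named genes *cxcr4a* alone lost its call (adjusted p = 0.0503). The number of arrays, 3 a stage, limits the precision of every value.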

Other observations

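Each group of 3 arrays had a few features on which all its samples lay more than 2 log2 units from the 9 other arrays. The double MO embryos at 90% epiboly had 25 such features above and 13 below, the double MO embryos at shield 11 and 7, the control MO embryos at 90% epiboly 3 and 0, and the control MO embryos at shield 13 and 2. Of the genes with 2 or more features, 19 had features that passed in both directions between the stages of control MO embryos. At the edge of the rule for the genes that rose or fell most, *zic1* (2.495) was the last in and *wu:fb55f04* (2.45) the first out, and *gyg1a* (-2.35) was the last in and *bnip3lb* (-2.31) the first out.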
